A study of Mus musculus with 4 samples.

Results

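The mouse genes with the symbol Zfp and a number encode mostly proteins with arrays of C2H2 zinc fingers, small protein folds that hold a zinc ion and usually bind DNA. The genes described here are the protein-coding genes of GENCODE M21 (GRCm38) on chromosomes 1 to 19 whose symbol is Zfp followed only by a number from 400 to 999. They number 233 among 20807 protein-coding genes of those chromosomes, and a further 125 Zfp genes have a number below 400. The rule uses gene symbol, gene type and chromosome only, but it was set with earlier results of these data known. A finger is recognised by 2 cysteines and 2 histidines at fixed spacing, and neighbouring fingers are joined by a short conserved linker. Many members of the family also carry a KRAB domain, which recruits the corepressor Trim28 and histone methyltransferases, and KRAB zinc finger proteins are known for silencing transposable elements. Their genes are known to have multiplied by local duplication, which has left dense clusters of similar copies in the mouse genome.

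RNA bound by a reader of m6A, a methyl mark on adenosines in RNA, was immunoprecipitated from mouse bone marrow (lin- c-Kit+ cells, which the labels name LIC, in a series on leukaemia). IGF2BP2, known to stabilise mRNA, YTHDF2, known to promote mRNA decay, and YTHDC1, a nuclear reader with roles in splicing and export, were each immunoprecipitated in 1 library with a Proteintech antibody, and 1 library was the input. All 4 libraries came from cells grown in medium with IL3, IL6 and SCF and crosslinked by 3 exposures to UV light (254 nm, at 120 mJ per cm2 each), and no strain, age, genotype or leukaemia driver is given for any of them. Library preparation used 20 amplification cycles and kept fragments from 250 to 450 bp. A peak list was used for each reader, and a peak was given to the gene under its summit. Library totals are not in the files used here, so depth is unknown, and no value below has a replicate check. Intervals are exact 95% binomial intervals, a count of 0 is also given the limit of 3 counts of the total, and both cover counting error only.

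Of 8 progenitor marker genes, 6 had a peak of any reader. Myb stood highest, at a fold of 46.9 in the IGF2BP2 list, 28.5 in the YTHDF2 list and 22.7 in the YTHDC1 list. The others reached 5.83 (Meis1) and 3.94 (Runx1) for IGF2BP2, and 6.49 (Cebpa) and 3.96 (Runx1) for YTHDF2. For YTHDC1, Runx1, Cebpa and Meis1 had 18.0, 17.3 and 12.9. None of 8 lymphoid and none of 6 erythroid markers had a peak of any reader, and 4 of 6 markers of mature myeloid cells did, at folds from 2.96 to 7.73. IGF2BP2 marked 3 of 8 progenitor and 3 of 6 mature myeloid markers. The exact upper limits for 0 of 8 and 0 of 6, 36.9% and 45.9%, lie above the 23.9% of all genes with a peak, so these counts do not set the lymphoid and erythroid markers apart. A gene can lack a peak for want of RNA or of binding, and in a bulk sample fewer cells of a type and less RNA per cell cannot be told apart.

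Most of the strongest peaks of the Zfp genes lay in coding sequence outside the fingers. Windows that reach 50 nt to either side of 7 coding summits are printed first, because the results below turn on where in the coding sequence the summits lie and on what these stretches are made of. Of these, 6 come from peaks with a fold above 6, and that of Zfp651, a weak peak with a pileup of 3, is shown for its base composition. They read 5′ to 3′ on the strand of the gene in GRCm38, from GENCODE M21 transcripts. Capitals mark GGAC, the core of the m6A consensus, wherever it occurs.
Zfp704, YTHDC1, chr3:9609398-9609498, minus strand: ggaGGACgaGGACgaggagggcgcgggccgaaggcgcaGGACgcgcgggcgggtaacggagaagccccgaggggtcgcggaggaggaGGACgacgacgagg
Zfp609, YTHDC1, chr9:65794893-65794993, minus strand: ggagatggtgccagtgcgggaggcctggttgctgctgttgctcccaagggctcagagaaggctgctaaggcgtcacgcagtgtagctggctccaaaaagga
Zfp710, YTHDC1, chr7:80081255-80081355, plus strand: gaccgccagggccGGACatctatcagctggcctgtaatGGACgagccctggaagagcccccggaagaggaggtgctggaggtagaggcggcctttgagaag
Zfp646, YTHDC1, chr7:127880791-127880891, plus strand: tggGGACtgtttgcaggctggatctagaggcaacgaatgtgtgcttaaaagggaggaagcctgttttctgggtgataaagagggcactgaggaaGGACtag
Zfp830, all 3 readers, chr11:82764773-82764873, plus strand: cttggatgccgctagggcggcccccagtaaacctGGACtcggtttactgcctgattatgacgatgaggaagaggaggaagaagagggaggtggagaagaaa
Zfp592, YTHDF2, chr7:81041635-81041735, plus strand: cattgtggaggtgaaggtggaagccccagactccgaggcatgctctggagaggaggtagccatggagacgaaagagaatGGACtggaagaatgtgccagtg
Zfp651, IGF2BP2, chr9:121763581-121763681, plus strand: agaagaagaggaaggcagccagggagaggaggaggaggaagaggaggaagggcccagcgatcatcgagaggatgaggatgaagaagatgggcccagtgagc
The window of Zfp704 holds GGAC 4 times and those of Zfp710 and Zfp646 hold it 2 times each, while those of Zfp609 and Zfp651 hold none. Runs of the triplets GAG, GAA and GAC are visible in most of them, and the window of Zfp651 consists largely of such runs.

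Most Zfp genes had no peak. A summit of any reader lay in 43 of 233 genes (18.5%, interval 13.7 to 24.0), against 23.9% of all protein-coding genes. YTHDC1 marked 39 of them (16.7%, 12.2 to 22.2), against 19.9% of all genes. IGF2BP2 marked 16 (6.87%, 3.98 to 10.9), against 12.8%, and YTHDF2 marked 9 (3.86%, 1.78 to 7.21), against 7.2%. The IGF2BP2 interval lay wholly below the share of all genes, while the YTHDC1 interval held it and the YTHDF2 interval reached it at its upper end. With only summits in exons, the counts were 13, 7 and 27 genes (5.58%, 3.00% and 11.6%), against 9.88%, 5.86% and 13.5% of all genes for IGF2BP2, YTHDF2 and YTHDC1. All 3 readers marked 4 Zfp genes (1.72%, 0.470 to 4.34), against 5.02% of all genes, whose share lies above that interval. These gaps were not set apart in the 149 Zfp genes with at most 10% of coding 31-mers (stretches of 31 nt) shared with other genes. There IGF2BP2 marked 12 (8.05%, 4.23 to 13.6) and all 3 readers marked 4 (2.68%, 0.736 to 6.73). Both intervals held the share of all genes, in a subset chosen after the values had been seen.

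**Figure D1:**
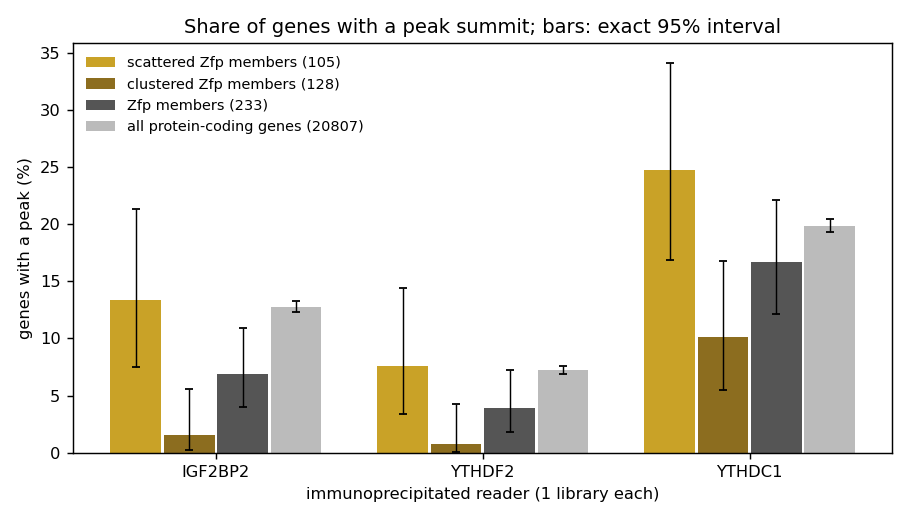
Bars give the percent of genes with a peak summit for each reader, for Zfp genes outside clusters (105), inside clusters (128), all 233 together and all 20807 protein-coding genes, with exact 95% intervals and 1 library per reader. Clustered genes have the lowest bar for each reader (1.56%, 0.781% and 10.2%), and genes outside clusters stand near all protein-coding genes.

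The share with a peak was highest in the longest transcripts, in Zfp genes and in all genes. The main transcript of the Zfp genes had a median of 3130 nt, longer than the 2618 nt of all genes. In the 4 length classes cut at 1588, 2618 and 4079 nt, 9.09%, 16.7%, 13.3% and 30.0% of the Zfp genes had a peak of any reader. The same classes of all genes had 11.0%, 19.8%, 27.7% and 37.7%. In the third class 12 of 90 Zfp genes had a peak, and the interval of 7.08 to 22.1% lay below the share of all genes. In the other classes the intervals of the Zfp genes for any reader held that share. For IGF2BP2 alone, the longest class had 7 of 70 Zfp genes (10.0%, 4.12 to 19.5), below the 1122 of 5099 of all genes in that class.

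Related gene families gave similar or higher shares. Of all protein-coding genes, 12.8%, 7.2% and 19.9% had a peak of IGF2BP2, YTHDF2 and YTHDC1. Of the 125 Zfp genes with a number below 400, 14, 4 and 19 had one (11.2%, 3.2% and 15.2%). Among these 125, the highest folds were those of Zfp330 (45.4 for IGF2BP2 and 15.8 for YTHDF2) and of Zfp36 (30.1 for YTHDC1), which encodes a protein that binds AU-rich mRNA. Zbtb genes, which pair fingers with a BTB domain, had 6, 3 and 13 of 39 (15.4%, 7.69% and 33.3%). Zscan and Zkscan genes, which pair them with a SCAN domain, had 2, 1 and 4 of 27 (7.41%, 3.70% and 14.8%). For each reader the intervals of these families held the share of all genes. The cofactors through which KRAB proteins silence chromatin stood apart from the genes of the fingers themselves. Of 33, 26 had a peak of any reader (78.8%, 61.1 to 91.0), against 23.9% of all genes. IGF2BP2, YTHDF2 and YTHDC1 marked 19, 16 and 20 of them (57.6%, 48.5% and 60.6%). Among them were Chd4, the remodelling ATPase of the NuRD complex, at a fold of 32.1 for IGF2BP2, Mphosph8, a subunit of the HUSH complex, at 24.1 for YTHDF2, and Ehmt2, a histone H3 lysine methyltransferase, at 36.9 for YTHDC1. The summits of Chd4 and Mphosph8 lay in introns and that of Ehmt2 in coding sequence. How much RNA each of these genes had was not analysed here.

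Inside gene clusters peaks were rare. A cluster was taken as at least 4 neighbouring Zfp genes with gaps of at most 500 kb, which gave 18 clusters with 128 genes and left 105 genes scattered. Of the clustered genes, 14 had a peak of any reader (10.9%, 6.11 to 17.7), against 29 of the scattered genes (27.6%, 19.3 to 37.2), and these intervals do not overlap. They overlap at their edges with gaps of at most 1000 kb (7.04 to 18.8 and 18.6 to 36.8) or 200 kb (4.95 to 17.8 and 17.6 to 32.8), and with exonic summits only (4.37 to 14.9 and 12.04 to 27.9). IGF2BP2 marked 2 clustered and 14 scattered genes (1.56% and 13.3%), YTHDF2 1 and 8 (0.781% and 7.62%), and YTHDC1 13 and 26 (10.2% and 24.8%). All 3 readers marked 0 of 128 clustered genes, which allows a share of up to 2.34% (exact upper limit 2.84%), and 4 of 105 scattered ones. For each reader the interval of the scattered genes held the share of all protein-coding genes.

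The clusters themselves differed widely. In 11 of the 18, with 88 genes, no reader had a summit. Among these were the 18 genes on chromosome 4 (145510759 to 147848366), the 14 on chromosome 13 (67038596 to 67792512) and both clusters of chromosome 17, with 14 and 8 genes. On chromosome 17 as a whole, 0 of 27 Zfp genes had a peak, and on chromosome 4 only 1 of 23 did, Zfp462, a gene linked to pluripotency, through a YTHDC1 summit in an intron. Chromosome 7 held 57 Zfp genes, of which 14 had a peak.

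**Figure D2:**
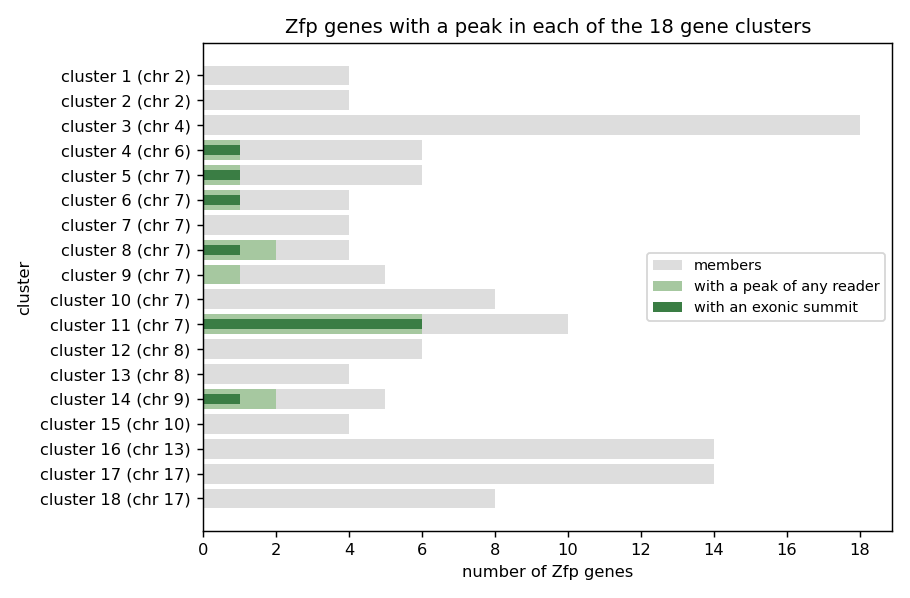
Grey bars give the number of Zfp genes in each of the 18 clusters, light green those with a peak of any reader and dark green those with a summit in an exon. In 11 clusters no gene has a peak, and cluster 11 on chromosome 7 has 6 of 10.

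The most peaks of any cluster lay in a stretch of chromosome 7. In this cluster of 10 genes (127233061 to 127885996), 6 genes had a peak, Zfp553, Zfp771, Zfp747, Zfp629, Zfp668 and Zfp646, all 6 with YTHDC1, and 12 peaks lay there in all. The highest was that of Zfp646, at a fold of 19.8 and a pileup of 22. Zfp668, linked to DNA repair, and Zfp646 share 1 summit under which both genes lie, so 1 peak counts for both. Elsewhere the highest fold in a cluster was 6.01 for Zfp746, which encodes the parkin substrate PARIS, 4.84 for Zfp628, 4.91 for Zfp787, 9.37 for Zfp526, 4.91 for Zfp568, a KRAB protein that represses placental Igf2, and 8.04 for Zfp810, each in the YTHDC1 list. The peaks of Zfp568 and Zfp810 lay in introns.

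Several clusters without a peak had much repeated sequence. The share of a gene's coding 31-mers that also occur in transcripts of another gene had a median of 11.3% in clustered genes and 0% in scattered ones. Its cluster median was 100% and 72.6% in the clusters of chromosome 2, 85.2% in the cluster of chromosome 4 and 52.7% in that of chromosome 10, all without a peak. In the 7 clusters with a peak it was at most 1.68%. Clusters with little shared sequence could also lack peaks, as did the second cluster of chromosome 17 (1.04%), that of 4 genes on chromosome 8 (4.46%) and a small one on chromosome 7 (6.06%). How reads that map to several places were treated is not given in the sources used here.

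Of the 81 genes with over 10% shared 31-mers, 7 had a peak (8.64%, 3.55 to 17.0), and of the 149 with at most 10%, 36 had one (24.2%, 17.5 to 31.8). The share of all protein-coding genes, 23.9%, lay above the first interval and within the second. Among genes with at most 10%, the gap between clustered and scattered genes narrowed to 12 of 62 (19.4%, 10.4 to 31.4) against 24 of 87 (27.6%, 18.5 to 38.2), with overlapping intervals. Both intervals held the 23.9% of all genes. In this subset YTHDC1 marked 12 of 62 clustered and 22 of 87 scattered genes (19.4% and 25.3%), against 19.9% of all genes, which both intervals held (10.4 to 31.4 and 16.6 to 35.7). IGF2BP2 marked 0 of 62, which allows a share of up to 4.84% (exact upper limit 5.78%), and 12 of 87 (13.8%, 7.34 to 22.9). Of all genes, IGF2BP2 marked 12.8%. This subset was chosen after the values had been seen.

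Genes with long finger arrays had the fewest exonic peaks. A finger was counted where the codons of the main transcript gave the C2H2 spacing, and 230 genes had a complete coding transcript to search. With 0 to 4 fingers, 10 of 37 genes had a peak (27.0%), with 5 to 9 fingers 15 of 61 (24.6%), and with 10 or more 18 of 132 (13.6%). Of all protein-coding genes, 23.9% had one. For exonic summits the shares were 24.3%, 21.3% and 6.82%, with intervals of 11.8 to 41.2, 11.9 to 33.7 and 3.16 to 12.5. The exonic share of all protein-coding genes was 17.5%, which the intervals for 0 to 4 and 5 to 9 fingers held. Only the interval for 10 or more fingers lay below it. Genes with a peak had a median of 8 fingers and those without had 11. Clustered genes also had more fingers than scattered ones (medians 11 and 9), so number of fingers, clustering and shared sequence move together here.

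Summits in coding sequence lay mostly outside the finger codons. In 25 genes, 46 summits fell in the coding sequence of the main transcript. Of these, 23 lay before the first finger, 14 between fingers, 7 after the last, 1 in Zfp839, where no finger was found, and 1 within a finger, in Zfp687. The codons of the fingers make up 21.3% of the coding bases of these 25 genes and 35.0% in all Zfp genes. Many of the 46 summits are a site marked by more than 1 reader, as in Zfp830, so they are not independent. Their places were not tested against these shares. These shares differ between genes: in Zfp608, Zfp609, Zfp704 and Zfp830 only 1 finger was found, over 1.59%, 1.70%, 4.23% and 6.32% of the coding sequence. The IGF2BP2 summits lay before the fingers in 11 of 17 cases, the YTHDC1 summits in 11 of 24, and the YTHDF2 summits in 1 of 5. Many C2H2 genes have their whole array in the last coding exon, and 14 of the 46 summits lay in that exon.

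**Figure D3:**
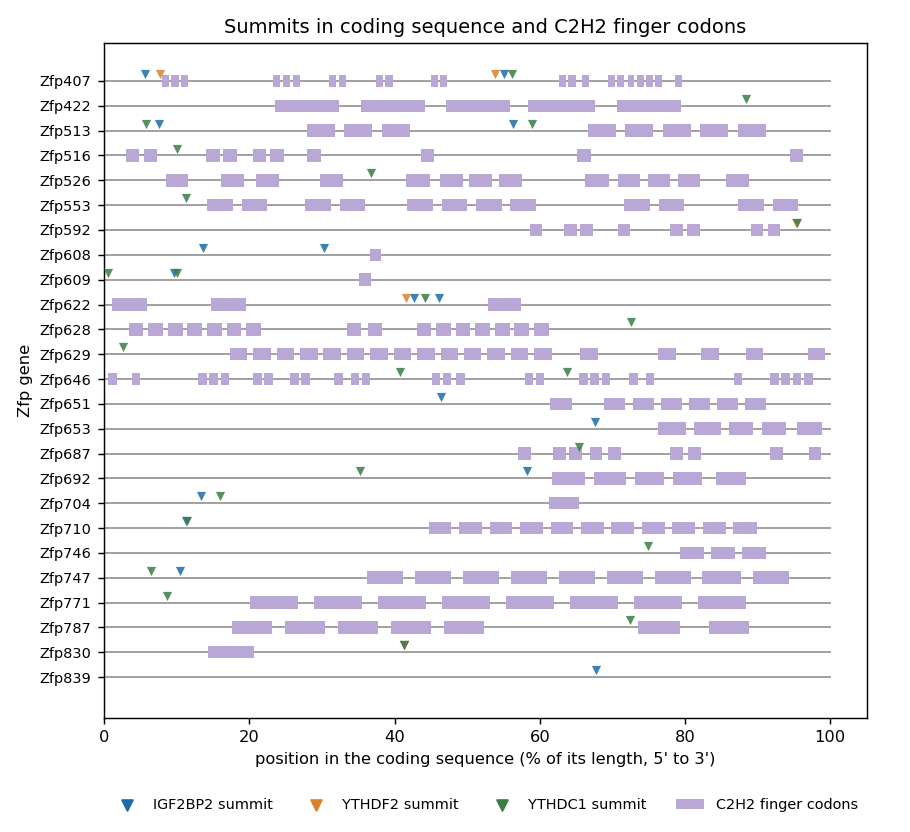
Each line is the coding sequence of 1 of the 25 genes with a coding summit, scaled to 100% of its length, with finger codons as boxes and summits as triangles coloured by reader. Of 46 summits, 1 stands over a finger, that of Zfp687. Many summits are a site marked by more than 1 reader.

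The motif GAGAAACC, 1 spelling of codons of the linker that joins fingers, was not found at the summits. Other spellings of these codons were not searched. On the sense strand, GAGAAACC was in 17.0% of all windows of this length in the coding sequence of Zfp genes, 5.50% of those in genes with a peak and 0.793% of those in all genes. It was in 0 of 17 IGF2BP2, 0 of 5 YTHDF2 and 0 of 24 YTHDC1 windows, which allow shares of up to 17.6%, 60.0% and 12.5% (exact upper limits 19.5%, 52.2% and 14.2%). These limits are not below the 5.50% of the genes with a peak, so an absence of this motif was not detectable with this number of windows.

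GGAC was in 7 of 17 IGF2BP2 windows (41.2%, 18.4 to 67.1), in 5 of 5 YTHDF2 windows (interval 47.8 to 100) and in 16 of 24 YTHDC1 windows (66.7%, 44.7 to 84.4). Windows of the same length at coding summits of all genes had it in 43.8%, 42.3% and 43.2%. Away from summits it was in 25.2% of all coding windows of Zfp genes, in 36.3% of those in Zfp genes with a peak and in 38.0% of those in all genes. The longer GGACT was in 1 of 17, 4 of 5 and 5 of 24 windows (5.88%, 80.0% and 20.8%), against 10.8%, 11.7% and 11.2% at coding summits of all genes. Away from summits it was in 7.92% of coding windows of Zfp genes, 9.67% of those in Zfp genes with a peak and 10.7% of those in all genes. Several windows overlap because readers share a site: the 5 YTHDF2 windows come from 4 genes, Zfp407, Zfp592, Zfp622 and Zfp830. A match marks these letters only and is no measure of methylation.

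Purines (A and G) were the other visible feature of the windows, and it was looked at after the sequences had been seen. They made up a median of 60.4% of the IGF2BP2 windows, 65.3% of the YTHDF2 windows and 64.4% of the YTHDC1 windows. All coding windows of the same 25 genes had a median of 52.5%. Windows at the coding summits of all genes had medians of 61.4%, 60.4% and 60.4%, slightly above the Zfp windows for IGF2BP2 and below them for YTHDF2 and YTHDC1, and the difference was not tested. The highest share was 83.2%, at the YTHDF2 summit of Zfp622, with an unbroken run of 32 purines, and the lowest was 35.6%, at the YTHDC1 summit of Zfp687 that lies within a finger. The motif GAGGA was in 10 of 17, 3 of 5 and 15 of 24 Zfp windows, against 52.5%, 52.5% and 54.8% at all coding summits. Away from summits it was in 16.8% of coding windows of Zfp genes, 23.5% of those in Zfp genes with a peak and 21.6% of those in all genes. GAAGA was in 8 of 17, 5 of 5 and 10 of 24 (47.1%, 100% and 41.7%), against 57.8%, 54.2% and 48.2% at all coding summits. Away from summits it was in 24.0% of coding windows of Zfp genes, 25.5% of those in Zfp genes with a peak and 25.7% of those in all genes. Unbroken runs of at least 15 purines were in 4 of 17, 2 of 5 and 4 of 24 windows, against 4.02% of the windows of the same genes and 14.9%, 15.4% and 18.5% at all coding summits.

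**Figure D4:**
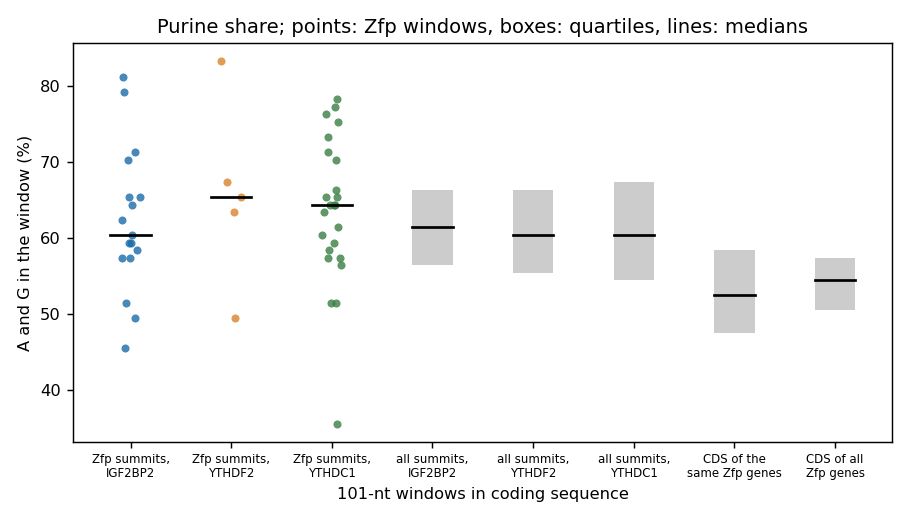
Points give the percent of A and G in each window at a coding summit of a Zfp gene, by reader, with the median as a line, and boxes give the quartiles and median of windows at all coding summits and of all coding windows of Zfp genes. The medians at Zfp summits (60.4 to 65.3%) are near those at all summits and above the 52.5% of the same genes.

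The strength of the peaks ranged from a fold of 2.90 to one of 38.4. The 43 genes held 96 peaks, 23 of IGF2BP2, 10 of YTHDF2 and 63 of YTHDC1. The fold, the authors' ratio of summit pileup to background around it, had a median of 5.91, 6.29 and 6.01, near the 5.91, 5.47 and 6.03 of peaks in all protein-coding genes. A pileup of at most 3 was seen in 5 of 23, 2 of 10 and 19 of 63 (21.7%, 20.0% and 30.2%), against 28.2%, 34.2% and 22.7% of peaks in all protein-coding genes. Among the genes, 19 had 1 peak and 13 had at least 3. Folds rank peaks within 1 list and do not compare readers.

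**Figure D5:**
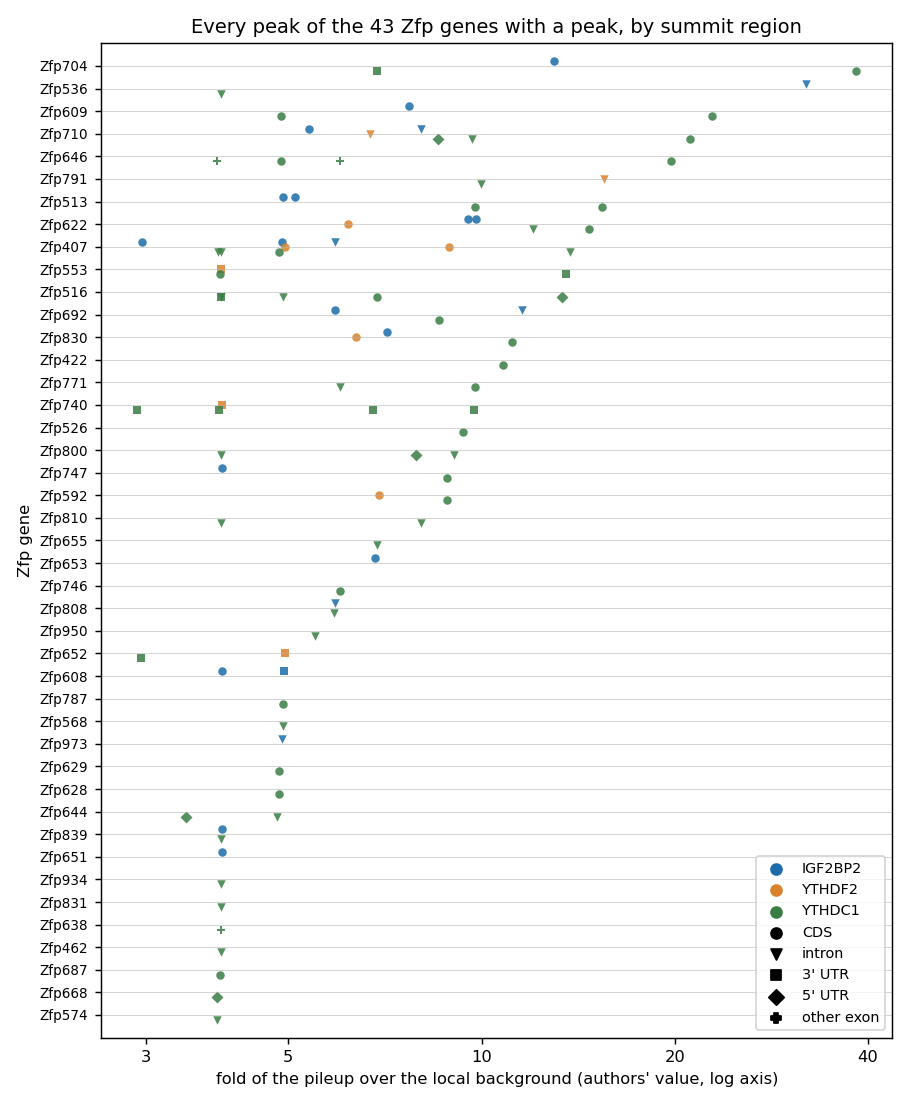
Each row is 1 of the 43 Zfp genes with a peak, each point a peak, with the authors' fold on a log axis, colour for the reader and shape for the region of the summit. Zfp704 (38.4) and Zfp536 (32.1) stand highest, and many genes have a single peak near a fold of 4.

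Zfp704 (ENSMUSG00000040209.12), known as a glucocorticoid-induced gene, had the highest fold of any Zfp gene. Its YTHDC1 peak in the coding part of exon 1 had a fold of 38.4 and a pileup of 69. The IGF2BP2 peak at the same place had a fold of 13.0 and a pileup of 23. Zfp609 (ENSMUSG00000040524.9), whose protein works with the cohesin loader Nipbl and the Integrator complex, had a YTHDC1 peak at a fold of 22.9 and a pileup of 23 early in the coding part of exon 2. IGF2BP2 had a fold of 7.72 and a pileup of 7 there. The summits lay 13.3% and 15.9% into the coding sequence of Zfp704 and 9.67% and 10.0% into that of Zfp609, ahead of the single finger found in each.

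Zfp710 (ENSMUSG00000048897.15) had peaks of all 3 readers at different sites. In the coding part of exon 2, YTHDC1 had a fold of 21.1 and a pileup of 34, and IGF2BP2 a fold of 5.38 and a pileup of 7. In an intron IGF2BP2 and YTHDF2 had summits at the same base, 2043 nt from the gene start, with folds of 8.04 and 6.70, and YTHDC1 had one 1927 nt from it at a fold of 9.65. Zfp646 (ENSMUSG00000049739.10), with 27 fingers, had only YTHDC1 peaks, with the highest at a fold of 19.8 between fingers. Zfp513 had YTHDC1 folds of 15.4 and 9.77 and IGF2BP2 folds of 5.13 and 4.90 at 2 coding sites, each marked by both readers.

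Beside Zfp710, the genes with all 3 readers were Zfp622, Zfp830 and Zfp407. Zfp622, a factor of ribosome maturation, had summits in the coding part of exon 1 in each list. IGF2BP2 had a fold of 9.52 and a pileup of 12, YTHDF2 6.20 and 7, and YTHDC1 14.7 and 21. A second IGF2BP2 summit lay in exon 2 at a fold of 9.80. In Zfp830, a gene of 1 exon linked to splicing and to early embryos, the summits of all 3 readers lay on the same base, 82764823 of chromosome 11. IGF2BP2 had a fold of 7.13 and a pileup of 7 there, YTHDF2 6.38 and 6, and YTHDC1 11.2 and 12. Zfp407 had 9 peaks, the most of any Zfp gene: its highest folds were 8.90 for YTHDF2 in coding exon 2, 13.7 for YTHDC1 in an intron and 5.92 for IGF2BP2 in another part of an intron. The 3 lists share 1 input.

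In Zfp692, linked to glucose metabolism, peaks of both readers overlapped across an exon border, with the IGF2BP2 summit in an intron at a fold of 11.6 and a pileup of 11 and the YTHDC1 summit in coding exon 6 at a fold of 8.59 and a pileup of 9. In Zfp592 (ENSMUSG00000005621.11), which works with Zmynd8 and Zfp687 in a transcriptional complex, YTHDF2 and YTHDC1 had coding summits close to the stop codon, 176 and 169 nt before it. Their folds were 6.92 and 8.83, with pileups of 6 and 8. Zfp644, a partner of the methyltransferases Ehmt1 and Ehmt2, had pileups of 22 and 15 but folds of only 4.81 and 3.46, since its local background was 3.78 and 3.62.

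YTHDC1 alone marked 22 of the 43 genes (51.2%, against 39.7% of all genes with a peak). YTHDF2 alone marked none, and IGF2BP2 alone marked 4, Zfp608, Zfp651, Zfp653 and Zfp973. Zfp651 had a fold of 3.94 and a pileup of 3, and Zfp653 a fold of 6.83 and a pileup of 6. IGF2BP2 and YTHDC1 shared 8 genes, Zfp513, Zfp536, Zfp609, Zfp692, Zfp704, Zfp747, Zfp808 and Zfp839. YTHDF2 and YTHDC1 shared 5, Zfp553, Zfp592, Zfp652, Zfp740 and Zfp791. The 4 genes with all 3 readers are 9.30% of the 43, against 20.98% of all genes with a peak. No intervals were computed for these shares of the 43 genes, and the differences from all genes were not tested. By position, an overlap with a peak of another reader was found for 14 of the 23 Zfp peaks of IGF2BP2, 9 of the 10 of YTHDF2 and 17 of the 63 of YTHDC1, counting any shared base. The same share over all peaks was not computed. The whole lists differ in length, with 7069 peaks of IGF2BP2, 2834 of YTHDF2 and 9963 of YTHDC1, so these counts do not compare the readers.

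By region, coding sequence held 16 of 23 IGF2BP2 summits (69.6%, 47.1 to 86.8), 5 of 10 YTHDF2 summits and 24 of 63 YTHDC1 summits (38.1%, 26.1 to 51.2). The shares in all protein-coding genes were 54.1%, 54.3% and 31.7%, all 3 within the intervals of the Zfp genes. Summits that are 3′ UTR in one transcript and coding in another count as 3′ UTR, which applies to 1 IGF2BP2 summit of Zfp608. Introns held 6 of 23, 2 of 10 and 24 of 63 (26.1%, 20.0% and 38.1%), near the 28.5%, 23.8% and 43.6% of all genes, and 12 of the 43 genes had intronic summits only.

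The highest intronic fold was that of Zfp536 in the IGF2BP2 list, of Zfp791 in the YTHDF2 list and of Zfp407 (13.7) in the YTHDC1 list. Zfp536, a repressor of neuronal differentiation, had an IGF2BP2 peak at a fold of 32.1 and a pileup of 35, and its only other peak, of YTHDC1, was elsewhere in an intron at a pileup of 3. In Zfp791, YTHDF2 had a fold of 15.5 and a pileup of 31, and YTHDC1 a fold of 9.97 and a pileup of 27, with summits at neighbouring bases. The local background there was 1.06 and 1.81, far above the lowest background of the lists (0.0111 for YTHDF2 and 0.0189 for YTHDC1). Intronic summits lay at a median of 10554.5 nt from the gene start for IGF2BP2, 6603.5 nt for YTHDF2 and 13999 nt for YTHDC1, with the nearest at 2043, 2043 and 423 nt.

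In 3′ UTRs lay 1 of 23 IGF2BP2, 3 of 10 YTHDF2 and 8 of 63 YTHDC1 summits (4.35%, 30.0% and 12.7%). The shares in all protein-coding genes were 11.2%, 14.2% and 12.3%, all within the intervals of the Zfp genes (0.110 to 21.9, 6.67 to 65.2 and 5.65 to 23.5). Zfp740 had 4 YTHDC1 summits in its 3′ UTR, the highest at a fold of 9.73 and a pileup of 9, and a YTHDF2 summit at a fold of 3.94. Zfp553 had folds of 13.6 for YTHDC1 and 3.92 for YTHDF2 at nearby bases. Zfp652, a partner of the corepressor Cbfa2t3, had a fold of 4.94 for YTHDF2 and, at a distant site, 2.94 for YTHDC1. In 5′ UTRs, YTHDC1 had 5 of 63 summits (7.94%, against 9.28% in all genes), while 0 of 23 and 0 of 10 for IGF2BP2 and YTHDF2 stand beside 3.53% and 5.08% in all genes, within their exact upper limits of 14.8% and 30.8%. The highest was that of Zfp516, a regulator of brown fat genes, at a fold of 13.3 and a pileup of 13. Zfp800 had 3 YTHDC1 peaks, with folds of 9.07 in an intron and 7.90 in a 5′ UTR.

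Few of the coding summits found lay in shared sequence. Of the 46 windows, 40 had no 31-mer in a transcript of another gene. The same share over all coding windows of these genes was not computed. How reads that map to several places were treated is not given, so this count does not tell whether shared sequence affects where peaks were called. Zfp747 had 87.3% shared at its IGF2BP2 summit and 67.6% at its YTHDC1 summit, with neighbours such as Zfp764 and Zfp688 among the matches, so its peaks are uncertain. Zfp422 had 45.1% shared with its pseudogene Zfp422-ps, and the windows of Zfp609 had 16.9% shared with Gm13543. Zfp692 had 8.45% at 1 summit. Another gene also lay under the summit at 4 peaks: the one shared by Zfp646 and Zfp668, the IGF2BP2 peak of Zfp653, an intronic one of Zfp644 and the 3′ UTR peak of Zfp704. The lists give no strand, so these 4 are uncertain.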

How the data were processed

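RNA immunoprecipitates of IGF2BP2, YTHDF2 and YTHDC1 and an input were sequenced, with 1 library each. HISAT2, Trim Galore and bcl2fastq 2.17 are named, with the build GRCm38, per the submitters' processing notes. The peak caller is not given in the sources used here. The deposited peak lists give, per peak, the authors' fold (ratio) of pileup over local background, the −log10 of a p-value and of a q-value, a whole-number score, and, per the file headers, the pileup signal at the summit. Depth is unknown, and the input was not analysed as a track.

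A summit was given to the gene under it in GENCODE M21, with exonic matches taken first, then protein-coding ones, and tied genes each counted. Where transcripts of a gene differ, a 3′ UTR went before a 5′ UTR, a 5′ UTR before CDS and CDS before non-coding exons. Of simulated points in coding sequence, 393 of 393 were returned to their gene and region, which checks the lookup only. Points in introns and UTRs are not part of that check. The local background was (pileup + 1) / fold − 1. Fingers, motifs and 31-mers were searched in GENCODE transcripts, motifs on the sense strand in windows reaching 50 nt to either side of the summit. A search for KRAB domains was not run. Python 3.11.15, numpy 2.4.6, pandas 2.3.3, scipy 1.17.1 and matplotlib 3.10.9 were used.

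With 1 library per reader there is no test, and lists are described by counts beside all genes. The members, lists and alternatives were chosen with earlier results of these data known. Named are, per reader, the 8 genes with the highest fold, those with all 3 readers or at least 3 peaks, the highest of each cluster and of each region, and up to 4 genes of each related list. Genes named beyond this were chosen after their values had been seen, as were the purine share and both purine motifs. Of the cofactor list, 2 symbols had no match on chromosomes 1 to 19.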

Additional observations from a re-analysis of the deposited data

How the results depend on the processing

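No paired analysis was possible because each reader has 1 library. Of 69 alternative values for 15 results, 60 stayed within the interval of the reported value. The share of Zfp genes with a YTHDC1 peak moved from 16.7% to 10.3% with a fold of at least 5, 10.7% with a pileup of at least 5, 11.6% with exonic summits only and 6.87% with lists of equal length. With lists of equal length the IGF2BP2 share moved from 6.87% to 3.43%. Of these settings, the share of all genes was computed for exonic summits only. The moves at the other settings thus do not tell how the Zfp genes compare with all genes there. The share of YTHDC1 summits in coding sequence moved from 38.1% to 52.4% for peaks whose −log10 q was 5 or more and to 57.9% with lists of equal length. After the data had been seen, exonic summits only were tried for scattered genes, whose share moved from 27.6% to 19.05%, and genes with at most 10% shared 31-mers for clustered genes, whose share moved from 10.9% to 19.4%. The cause was not tested, beyond the fewer peaks that a stricter list holds. Cluster gaps of at most 200 kb or 1000 kb kept both shares within their intervals. Depth is unknown, and peaks with a pileup of at most 3 rest on few fragments.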
